A study of Mus musculus with 3 samples.

Results

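The genes described here encode the secreted TGF-beta ligands Tgfb1, Tgfb2 and Tgfb3, the latent TGF-beta binding proteins Ltbp1 and Ltbp3, the microfibril protein fibrillin 1 (Fbn1), the activin A subunit Inhba, the activin antagonist follistatin (Fst) and the TGF-beta receptors Tgfbr1 and Tgfbr2. They are 10 of the 41214 gene identifiers in the deposited tables, a list of named ligand, matrix storage, activin and receptor genes of the pathway drawn up with earlier results of these data known, and all 10 were matched by Ensembl identifier to a mouse symbol. Their RNA was counted in 3 cultures of exponentially growing mouse keratinocytes, the epithelial cells of the epidermis, with 1 strand-specific mRNA library for each genotype. The genotypes were ARPC4 ko, a knockout of a subunit of the actin-nucleating Arp2/3 complex, Nrf2-EGFP, cells labelled as expressing a fusion of the antioxidant transcription factor Nrf2 with the fluorescent protein EGFP, and wild type (wt). Every culture came from the C57BL/6 strain and had been immortalised with SV40. The title of the ARPC4 ko library also holds the word Cre and that of the Nrf2-EGFP library the word High, and the sources used here do not state whether a line is 1 clone. The series title relates loss of the Arp2/3 complex in epidermis to Nrf2 activity and a psoriasis-like disease.

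TGF-beta ligands are secreted in an inactive form, in which the mature dimer stays bound to its own cleaved propeptide. A latent TGF-beta binding protein is linked to that complex by disulfide bonds and tethers it to fibrillin microfibrils and fibronectin, from which integrins and proteases can release it. Active ligand assembles a receptor of type II (Tgfbr2) with one of type I (Tgfbr1), which phosphorylates SMAD proteins. Activin A is a dimer of Inhba subunits, signals through its own receptors to the same SMAD proteins, and is bound with high affinity by follistatin. In skin, TGF-beta restrains the growth of keratinocytes, and activin is produced by keratinocytes during wound repair.

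The ARPC4 ko library held 23033863 gene counts, the Nrf2-EGFP library 25723959 and the wt library 22924294. Levels within a gene are given as CPM, counts scaled to libraries of 1e6 gene counts after TMM adjustment of library sizes, and between genes as CPM per kilobase of annotated exons. A gene was called where it differed by 1 or more in the log2 ratio of CPM + 0.5 and its ratio of scaled counts had an exact 95% interval that left out 1. Ranges in parentheses are such intervals. They cover counting error of these libraries only. With 1 library for each genotype no spread between cultures was measured, so no difference has a replicate check and no p-value is given. Arpc4 itself had 61.0 CPM in the library labelled ARPC4 ko, 98.4 CPM in Nrf2-EGFP and 94.2 CPM in wt, and Nfe2l2, the gene of Nrf2, had 179.5, 166.4 and 224.7 CPM in the same libraries. Nfe2l2 was thus 1.35-fold lower (1.30 to 1.41) in the library labelled Nrf2-EGFP than in wt, and 1.25-fold lower (1.20 to 1.30) in ARPC4 ko. The label names a fusion and gives no level of Nfe2l2 RNA, and whether the counts include RNA of the fusion is not stated. These counts therefore do not check that label. Directions given for Nrf2-EGFP are those of the library with that label. The Arpc4 RNA in the knockout library was 1.54-fold lower (1.44 to 1.65) than in wt and was not called. The part of the gene that was deleted is not named in the labels, so counts over the whole gene are a limited check of it. Of 10 keratinocyte markers 9 passed the filter of 1 CPM, with Krt15 at 0, 0 and 2 counts, and the list summed to 13127, 17381 and 22920 CPM in ARPC4 ko, Nrf2-EGFP and wt. Krt5 and Krt14 made up most of that sum in each library. Krt5, Krt14 and Dsg3 of that list were called lower in ARPC4 ko than in wt, where 2.06% of all genes were called lower. The other 6 that passed the filter were not called. Among these, Epcam and Trp63 were higher in ARPC4 ko, with ratios to wt of 1.54 and 1.18. Itgb4 was near level at 0.99, and Itga6, Cdh1 and Dsp were lower, at 0.77, 0.89 and 0.79. The part of these markers in the results below was not tested. In these bulk samples fewer cells of a type and less RNA per cell cannot be told apart.

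Most of these genes had more RNA in both modified libraries than in wt, with intervals wholly above 1 for 7 genes in ARPC4 ko and 8 in Nrf2-EGFP. Over all genes compared, 31.6% had intervals above 1 and 34.6% below 1 in ARPC4 ko over wt, and 32.1% above and 30.8% below in Nrf2-EGFP over wt. Of the 9 that passed the filter of 1 CPM in at least 1 library, Fbn1, Ltbp1 and Fst were called higher in ARPC4 ko and none lower, where 4.7% of the 11865 genes compared were called higher, 2.06% lower and 6.76% in either direction. In Nrf2-EGFP against wt the called genes were again Fbn1, Ltbp1 and Fst as higher, with Tgfb3 as lower, where 3.57% of all genes were called higher, 2.05% lower and 5.61% in either direction. The median log2 ratio of the 9 genes was 0.79 in ARPC4 ko over wt and 0.70 in Nrf2-EGFP over wt, beside -0.01 and 0.00 over all genes. Both comparisons use the same wt library, so a low value there would raise both. Tgfb2 did not pass the filter and is described by its counts.

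**Figure D1:**
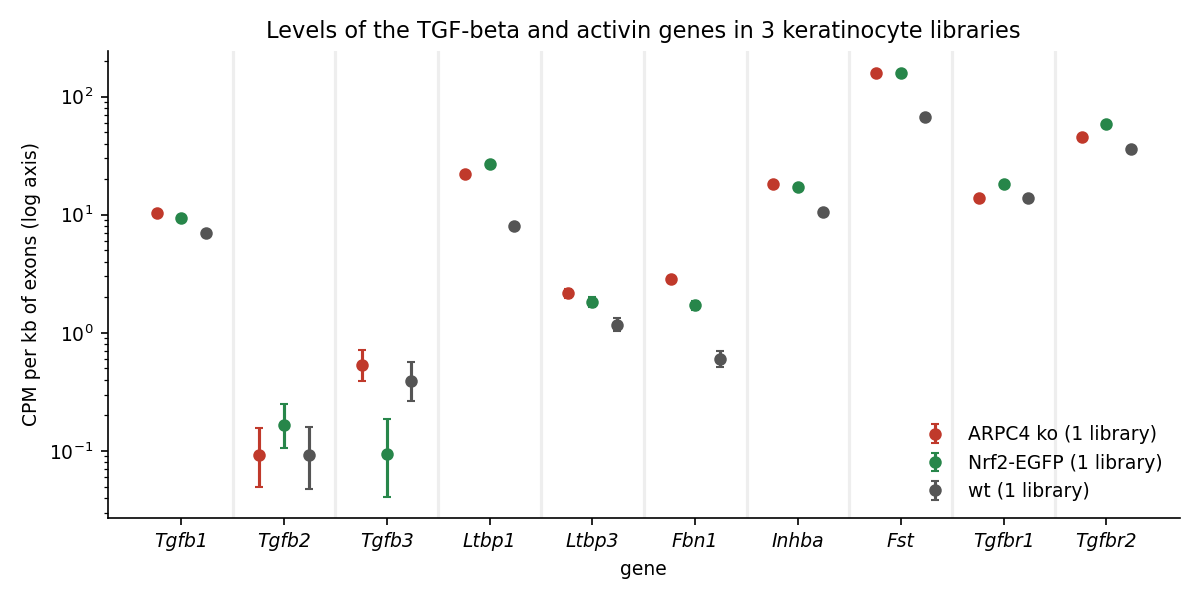
Level of each of the 10 genes in CPM per kilobase of annotated exons (log axis) in the ARPC4 ko, Nrf2-EGFP and wt libraries (1 each), with 95% Poisson counting intervals as bars. Fst is highest in every library, at 157, 159 and 66.7, and Tgfb2 and Tgfb3 lie below 1 throughout.

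Tgfb1 was the main TGF-beta ligand in every library. It lies on chromosome 7 (chr7:25687002-25705077, plus strand, mm10) and had 52.1 CPM in ARPC4 ko, 46.9 CPM in Nrf2-EGFP and 35.04 CPM in wt. Its level was thus highest in ARPC4 ko, and both modified libraries lay above wt by less than the call requires, 1.49-fold (1.36 to 1.63) in ARPC4 ko and 1.34-fold (1.22 to 1.47) in Nrf2-EGFP. Per kilobase, Tgfb1 made up 94.3% of the RNA of the 3 ligand genes in ARPC4 ko, 97.3% in Nrf2-EGFP and 93.5% in wt. By coding length those shares were 96.0%, 97.6% and 95.3%.

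Tgfb3, the ligand known for its part in palate fusion, was scarce and differed between the modified libraries. It had 44 counts in ARPC4 ko, 8 in Nrf2-EGFP and 30 in wt, or 1.81, 0.32 and 1.33 CPM. Tgfb3 passed the filter only through ARPC4 ko and wt, so it could enter the comparisons only by being higher there. The Nrf2-EGFP library stood alone as low. Its Tgfb3 was 4.14-fold lower (1.86 to 10.5) than in wt and was called, whereas the ratio of ARPC4 ko to wt was 1.36 (0.83 to 2.24), an interval that includes 1. ARPC4 ko over Nrf2-EGFP gave 5.62-fold (2.62 to 13.8), the one call among these genes between the modified libraries, where 2.01% of all genes were called higher, 0.961% lower and 2.98% in either direction. With a pseudocount of 2 CPM in place of 0.5 the log2 ratio of Nrf2-EGFP over wt was -0.52 and that of ARPC4 ko over Nrf2-EGFP was 0.71, so both calls ended. Inside each library, which is free of scaling between libraries, Tgfb3 per kilobase stood to Tgfb1 as 0.052 (0.037 to 0.070) in ARPC4 ko, 0.010 (0.004 to 0.020) in Nrf2-EGFP and 0.057 (0.038 to 0.082) in wt. Tgfb2, the third ligand, had 13, 24 and 12 counts in ARPC4 ko, Nrf2-EGFP and wt. Its ratio was 1.002 (0.42 to 2.40) in ARPC4 ko over wt and 1.81 (0.87 to 3.97) in Nrf2-EGFP over wt, so a 2-fold difference was not detectable at this depth.

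Ltbp1, the binding protein that holds latent TGF-beta in the matrix, was called higher in both modified libraries. It lies on chromosome 17 (chr17:75005568-75392512, plus strand) and had 237.3 CPM in ARPC4 ko, 287.6 CPM in Nrf2-EGFP and 85.8 CPM in wt. Both modified libraries lay far above wt, with Nrf2-EGFP the highest. In ARPC4 ko the ratio was 2.76 (2.63 to 2.91) and 235 of all genes compared had a higher log2 ratio. In Nrf2-EGFP it was 3.35 (3.19 to 3.52) and 98 genes were higher still. ARPC4 ko stood 1.21-fold lower (1.17 to 1.25) than Nrf2-EGFP.

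Ltbp3, a second latent TGF-beta binding protein with a known role in bone and tooth development, was expressed at a lower level (chr19:5740904-5758532, plus strand). It had 19.6 CPM in ARPC4 ko, 16.6 CPM in Nrf2-EGFP and 10.6 CPM in wt, again with wt lowest. Its ratios of 1.85 (1.58 to 2.17) in ARPC4 ko and 1.56 (1.33 to 1.84) in Nrf2-EGFP were not called. The balance between these binding proteins also differed inside the libraries. Per kilobase Ltbp1 exceeded Ltbp3 by 10.3-fold (9.34 to 11.3) in ARPC4 ko, 14.7-fold (13.3 to 16.2) in Nrf2-EGFP and 6.85-fold (5.99 to 7.87) in wt.

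The ratio of Ltbp1 to Tgfb1, binding protein to ligand, was also larger in both modified libraries. Per kilobase it was 2.15 (2.02 to 2.29) in ARPC4 ko, 2.89 (2.72 to 3.08) in Nrf2-EGFP and 1.16 (1.06 to 1.26) in wt. Its change, which depends neither on gene length nor on library scaling, was 1.86-fold (1.68 to 2.06) in ARPC4 ko over wt and 2.50-fold (2.25 to 2.78) in Nrf2-EGFP over wt. Which gene stood higher does depend on the length used. By coding length the ratio was 1.04, 1.40 and 0.56 in ARPC4 ko, Nrf2-EGFP and wt, so in wt Ltbp1 lay below Tgfb1 on that scale.

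Fbn1, whose protein fibrillin 1 forms the microfibrils to which these binding proteins attach, had the largest ratio to wt of the 10 genes in ARPC4 ko. It lies on chromosome 2 (chr2:125300594-125507993, minus strand) and had 34.4 CPM in ARPC4 ko, 20.8 CPM in Nrf2-EGFP and 7.34 CPM in wt, from 837, 517 and 165 counts. The 3 libraries were well separated, in the order ARPC4 ko, Nrf2-EGFP, wt. ARPC4 ko was 4.69-fold higher (3.97 to 5.58) than wt, with 63 genes at a higher log2 ratio, and Nrf2-EGFP was 2.84-fold higher (2.38 to 3.40), with 177 above it. Between the modified libraries ARPC4 ko was 1.65-fold higher (1.48 to 1.85), which was not called. Fbn1 and Ltbp1 thus ranked the modified libraries in opposite order. Per kilobase Fbn1 stood to Ltbp1 as 0.128 (0.119 to 0.138) in ARPC4 ko, 0.064 (0.058 to 0.070) in Nrf2-EGFP and 0.075 (0.064 to 0.088) in wt, a ratio 2.01-fold larger (1.79 to 2.25) in ARPC4 ko than in Nrf2-EGFP.

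**Figure D2:**
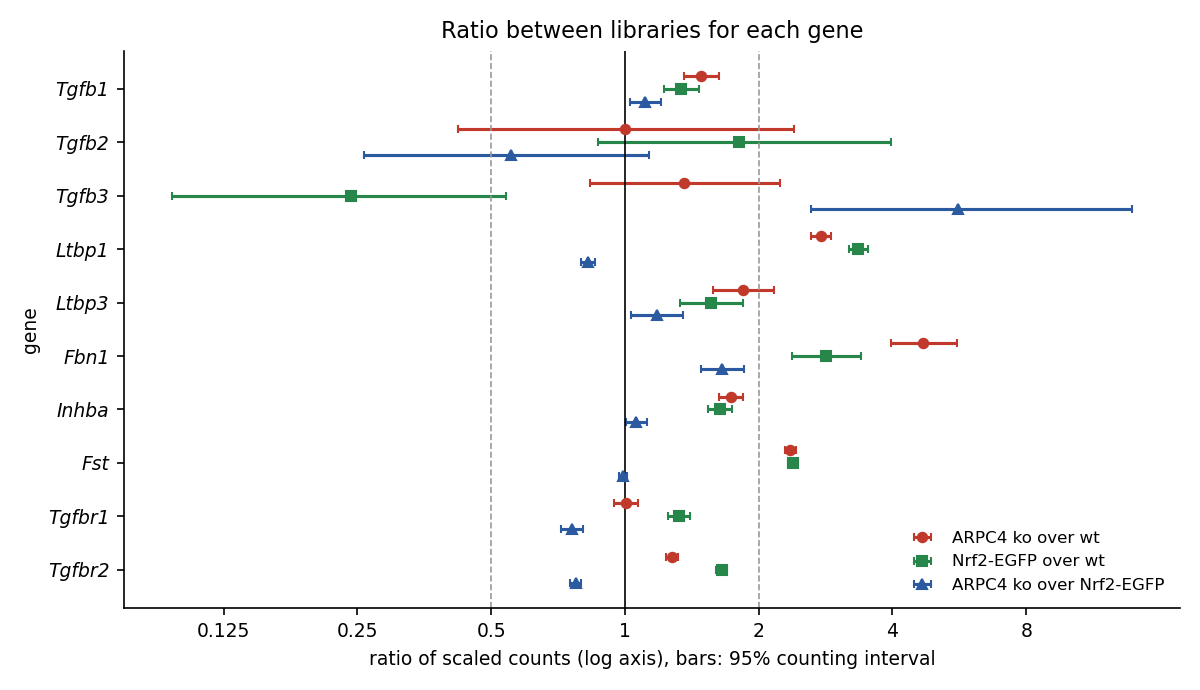
Ratio of scaled counts for each gene (log axis) in ARPC4 ko over wt, Nrf2-EGFP over wt and ARPC4 ko over Nrf2-EGFP, with exact 95% counting intervals as bars and dashed lines at 2-fold. Fbn1, Ltbp1 and Fst lie beyond 2-fold in both comparisons with wt, and Tgfb3 lies below 1 in Nrf2-EGFP over wt.

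Fbn1 and Ltbp1 are commonly abundant in fibroblasts, so markers of that cell type were read beside them. Of 11 fibroblast markers 6 had no count in any library, namely Col1a2, Col3a1, Col6a1, Pdgfrb, Lum and Thy1. The list summed to 4.85 CPM in ARPC4 ko, 2.78 CPM in Nrf2-EGFP and 1.60 CPM in wt, the same order as Fbn1. Vim made up most of the ARPC4 ko sum, with 68 counts there, 3 in Nrf2-EGFP and 12 in wt, so that order rests on Vim. Pdgfra had 27, 46 and 22 counts and Col1a1 11, 16 and 2, both highest in Nrf2-EGFP. Postn had 12, 3 and 0. The part of other cell types in the levels of Fbn1 and Ltbp1 was not tested. Leukocyte markers summed to 7.20, 5.63 and 5.74 CPM and melanocyte markers to 5.35, 2.17 and 3.47 CPM. Endothelial markers summed to 53.1, 61.3 and 27.0 CPM, nearly all of it Flt1, with Cdh5 at 0, 1 and 1 counts.

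Promoter windows are shown for Ltbp1 and Fbn1, the storage genes called higher in both modified libraries, as the 250 bases before each RefSeq start (GRCm38.p6, 5′ to 3′ on the gene's strand). Ltbp1 has a distal start, whose window is chr17:75005279-75005528, and a proximal start, with window chr17:75178531-75178780, both on the plus strand, and the counts cover the whole gene and do not separate them. The Fbn1 window is chr2:125506439-125506688 on the minus strand and lies inside the gene as GENCODE annotates it, whose start is further upstream. Capitals mark matches to any of 5 motifs searched on both strands.
Ltbp1 distal: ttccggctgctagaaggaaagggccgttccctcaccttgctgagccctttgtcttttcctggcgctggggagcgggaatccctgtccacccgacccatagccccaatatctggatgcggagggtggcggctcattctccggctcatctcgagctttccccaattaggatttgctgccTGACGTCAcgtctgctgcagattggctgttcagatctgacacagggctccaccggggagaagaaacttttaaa
Ltbp1 proximal: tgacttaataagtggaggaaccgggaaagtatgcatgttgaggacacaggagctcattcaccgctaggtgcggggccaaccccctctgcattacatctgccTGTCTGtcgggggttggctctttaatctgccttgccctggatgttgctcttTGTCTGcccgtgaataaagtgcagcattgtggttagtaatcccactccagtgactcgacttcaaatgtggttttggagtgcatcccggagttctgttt
Fbn1: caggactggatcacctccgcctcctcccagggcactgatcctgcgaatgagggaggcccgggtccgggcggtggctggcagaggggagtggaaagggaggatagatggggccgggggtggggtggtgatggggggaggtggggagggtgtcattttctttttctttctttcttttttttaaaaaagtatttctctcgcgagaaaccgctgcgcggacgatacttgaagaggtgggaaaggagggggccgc
The motifs were the AP-1 site TGANTCA, the cyclic AMP response element TGACGTCA, the antioxidant response element core TGACNNNGC that Nrf2 binds, the SMAD-binding CAGACA and the TEAD-binding GGAATG. TGACGTCA was added to the search after the Ltbp1 window had been seen. The distal Ltbp1 window held 1 match to it, starting 73 bases before the start, and 1.55% of 32851 RefSeq promoter windows of this length hold one. The proximal Ltbp1 window held 2 matches to CAGACA, read on the other strand as TGTCTG, starting 149 and 98 bases before the start, where 17.1% of windows hold at least 1. The Fbn1 window held none of the 5 motifs. No window of Ltbp1 or Fbn1 held the antioxidant response element core, which 10.2% of windows hold, the AP-1 site, which 6.75% hold, or the TEAD-binding letters, which 12.6% hold. Such a match is a description of letters, and a missing one says only that they are not in this window. RefSeq windows were found for 8 of the 10 genes, all but Tgfb3 and Fst. Of the windows not shown, 1 of Tgfbr1 and that of Tgfbr2 held the antioxidant response element core, starting 214 and 192 bases before the start. CAGACA matched in the Tgfb2 window and in the other Tgfbr1 window. The windows of Tgfb1, Ltbp3 and Inhba held none of the motifs.

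Inhba and Fst, the activin subunit and its antagonist, were both more abundant in the modified libraries, and Fst by more. Inhba (chr13:16011851-16031621, plus strand) had 117.4 CPM in ARPC4 ko, 110.6 CPM in Nrf2-EGFP and 67.7 CPM in wt. The modified libraries lay close together above wt, at 1.73-fold (1.63 to 1.85) in ARPC4 ko and 1.63-fold (1.53 to 1.74) in Nrf2-EGFP, neither of which was called. Fst (chr13:114452290-114458951, minus strand) was the most abundant of the 10 genes per kilobase in every library. It had 721.3 CPM in ARPC4 ko, 730.3 CPM in Nrf2-EGFP and 305.9 CPM in wt. Again the modified libraries were alike in level and wt was apart, with ratios of 2.36 (2.29 to 2.43) in ARPC4 ko and 2.39 (2.32 to 2.46) in Nrf2-EGFP, both called. Between ARPC4 ko and Nrf2-EGFP the Fst ratio was 0.99 (0.97 to 1.01), and its log2 value of -0.02 turned to 0.11 with scaling by total counts. Per kilobase Fst exceeded Inhba by 8.56-fold (8.23 to 8.91) in ARPC4 ko, 9.19-fold (8.83 to 9.57) in Nrf2-EGFP and 6.29-fold (5.95 to 6.66) in wt. That balance was 1.36-fold (1.27 to 1.46) larger in ARPC4 ko than in wt and 1.46-fold (1.36 to 1.57) larger in Nrf2-EGFP than in wt.

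**Figure D3:**
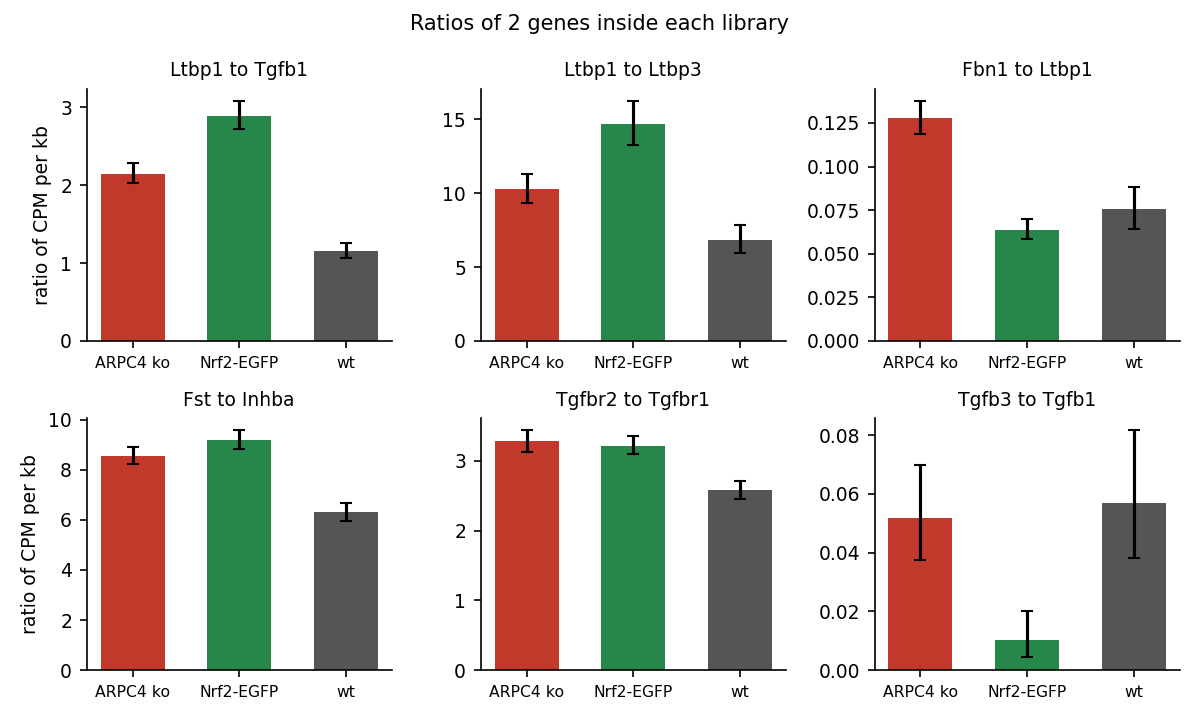
Ratio of CPM per kilobase between 2 genes inside the ARPC4 ko, Nrf2-EGFP and wt libraries for 6 gene pairs, with exact 95% counting intervals as bars and axes from 0. Ltbp1 to Tgfb1 and Fst to Inhba are larger in both modified libraries than in wt, and Fbn1 to Ltbp1 is largest in ARPC4 ko.

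Neither receptor was called in any comparison. Tgfbr2, the ligand-binding receptor (chr9:116084293-116175360, minus strand), had 372.7 CPM in ARPC4 ko, 481.6 CPM in Nrf2-EGFP and 291.8 CPM in wt. Nrf2-EGFP was the highest of the 3 libraries, with ratios to wt of 1.28 (1.24 to 1.32) in ARPC4 ko and 1.65 (1.60 to 1.70) in Nrf2-EGFP. Tgfbr1, the signalling kinase (chr4:47353222-47414931, plus strand), had 90.7 CPM in ARPC4 ko, 119.4 CPM in Nrf2-EGFP and 90.2 CPM in wt. Here ARPC4 ko and wt coincided, with a ratio of 1.005 (0.95 to 1.07), and Nrf2-EGFP lay above both at 1.32-fold (1.25 to 1.40) over wt. Per kilobase Tgfbr2 exceeded Tgfbr1 by 3.28-fold (3.13 to 3.44) in ARPC4 ko, 3.22-fold (3.09 to 3.35) in Nrf2-EGFP and 2.58-fold (2.46 to 2.71) in wt.

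By CPM per kilobase the 10 genes kept much the same order in the 3 libraries, with Fst first and Tgfbr2 next in each. Ltbp1 was the third in ARPC4 ko and Nrf2-EGFP, at 22.2 and 26.9 CPM per kilobase, and the fifth in wt, at 8.03, behind Tgfbr1 and Inhba. By coding length Ltbp1 was the fifth in both modified libraries and the sixth in wt. Neighbours whose counting intervals overlapped were Tgfbr1 and Inhba, Ltbp3 and Fbn1, and Tgfb2 and Tgfb3 in Nrf2-EGFP, and Fbn1 and Tgfb3 in wt.

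**Figure D4:**
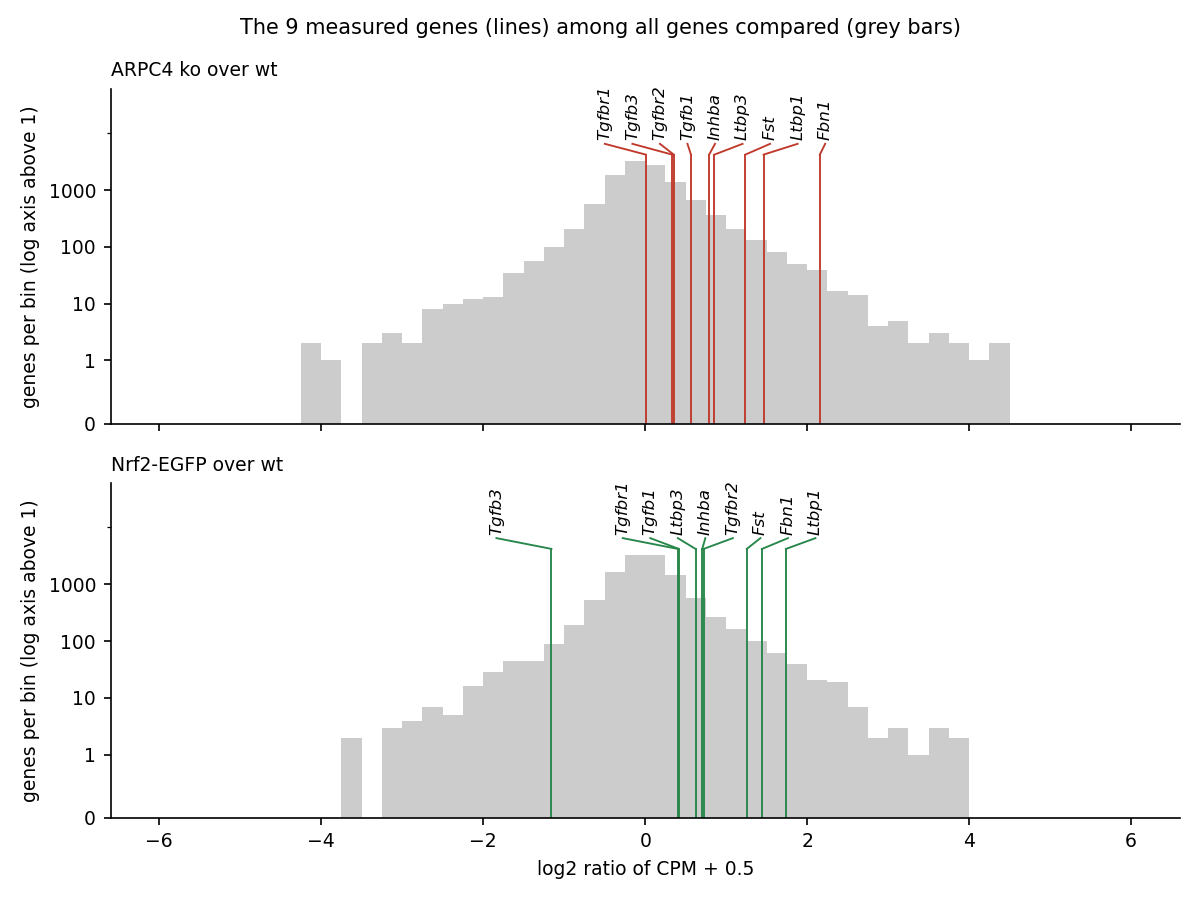
Histogram of the log2 ratio of CPM + 0.5 for the 11865 genes compared (grey bars, number of genes per bin on an axis that is logarithmic above 1), in ARPC4 ko over wt (upper) and Nrf2-EGFP over wt (lower). Coloured lines mark the 9 measured genes, of which 9 lie above 0 in ARPC4 ko and 8 in Nrf2-EGFP.

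The patterns most like each called gene were taken as the 2 genes nearest in the pair of log2 ratios to wt, among genes with at least 10 CPM in any library. Ltbp1, at 1.46 in ARPC4 ko and 1.74 in Nrf2-EGFP, was nearest to Hmga2, a chromatin protein, at 1.48 and 1.76, and next to Camk4. Fbn1, at 2.16 and 1.44, was nearest to Samd14 at 2.17 and 1.55 and next to Pdzrn3. Nearest to Fst, at 1.24 and 1.25, were Klhl23, at 1.26 and 1.25, and the secreted metalloproteinase gene Mmp11, at 1.22 and 1.24. Tgfb3, at 0.33 and -1.16, was nearest to the chemokine gene Ccl20, at 0.43 and -1.22, and to Creld1. With 3 libraries each likeness rests on 2 differences that share wt.

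Genes that store or release TGF-beta shared the direction of the 10 genes in part. In this list of activation genes 15 of 21 members passed the filter, and the median log2 ratio was 0.58 in ARPC4 ko over wt and 0.61 in Nrf2-EGFP over wt. Called as higher in ARPC4 ko were Ltbp2 and Plau, the urokinase plasminogen activator, the latter at 2.27-fold (2.19 to 2.35). Ltbp2, a further family member that does not bind latent TGF-beta, had 33 counts in ARPC4 ko, 9 in Nrf2-EGFP and 0 in wt. Its ratio of wt to ARPC4 ko was 0 (0 to 0.128). Ltbp2 passed the filter only through ARPC4 ko, at 1.36 CPM, so it could enter the comparison only by being high there. In ARPC4 ko 4.7% of all genes were called higher. In Nrf2-EGFP 4 of the list were higher and 1 lower, beside 3.57% and 2.05% of all genes. Thbs1, the matrix protein thrombospondin 1 that can activate latent TGF-beta, had 2652 CPM in ARPC4 ko, 3737 CPM in Nrf2-EGFP and 1437 CPM in wt, and was 2.60-fold higher (2.57 to 2.63) in Nrf2-EGFP than in wt. Tgm2, a transglutaminase that crosslinks matrix, was 3.08-fold higher (2.44 to 3.92) there and Ltbp4 2.22-fold (1.94 to 2.54), and the remaining call was Plau. Lrrc32, which displays latent TGF-beta on cell surfaces, was 2.69-fold lower (2.14 to 3.39) in Nrf2-EGFP, with 208 counts in ARPC4 ko, 109 in Nrf2-EGFP and 265 in wt. The integrin genes Itgav, Itgb6 and Itgb8, whose proteins release TGF-beta and which were chosen after their values were seen, were not called in either comparison with wt. Itgb6 had ratios of 1.19 (1.14 to 1.24) in ARPC4 ko and 1.53 (1.47 to 1.59) in Nrf2-EGFP, and Itgb8 had 1.35 (1.12 to 1.64) and 0.63 (0.50 to 0.79).

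Of 20 microfibril and elastic fibre partners of Fbn1, 8 passed the filter. In ARPC4 ko 3 were higher than wt and none lower, beside 4.7% and 2.06% of all genes, with a median log2 ratio of 0.55. Adamts10, a protease that binds fibrillin, had 107 counts in ARPC4 ko, 58 in Nrf2-EGFP and 11 in wt, and passed the filter only through the modified libraries. Its ratios to wt were 8.998 (4.83 to 18.6) in ARPC4 ko and 4.77 (2.48 to 10.1) in Nrf2-EGFP. Fbln2 (fibulin 2) had 207.2 CPM in ARPC4 ko, 515.3 CPM in Nrf2-EGFP and 97.5 CPM in wt, so it was 2.12-fold higher (2.02 to 2.23) in ARPC4 ko and 5.28-fold higher (5.05 to 5.53) in Nrf2-EGFP. Efemp2 (fibulin 4) was the other call in ARPC4 ko, at 2.97-fold (2.38 to 3.73). In Nrf2-EGFP 2 partners were higher and 2 lower, beside 3.57% and 2.05% of all genes, with a median of 0.30. The lower ones were Vcan, the proteoglycan versican, 5.43-fold (4.08 to 7.33), and Efemp1. Efemp1 had no count in Nrf2-EGFP and 27 in wt, a ratio of 0 (0 to 0.132), and passed the filter only through wt. Elastin and the microfibril genes Mfap2, Mfap4 and Mfap5 were below the filter, at 7 counts or fewer. Fbln5, at 19, 8 and 10 counts in ARPC4 ko, Nrf2-EGFP and wt, and Lox, at 17, 18 and 6, were also below it. These genes below the filter were chosen after their values were seen.

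Other ligands of the family were mostly scarce, with 9 of 26 passing the filter and 1, Gdf1, not matched. Gdf11, a ligand close to myostatin, had 20.9 CPM in ARPC4 ko, 18.2 CPM in Nrf2-EGFP and 7.52 CPM in wt. It was 2.78-fold higher (2.33 to 3.33) in ARPC4 ko and 2.43-fold higher (2.03 to 2.91) in Nrf2-EGFP. Bmp7, a bone morphogenetic protein, was low in ARPC4 ko alone, at 21.3 CPM beside 48.5 CPM in Nrf2-EGFP and 55.8 CPM in wt, 2.62-fold lower (2.36 to 2.91) than wt. Inha, the subunit that makes inhibin from an activin subunit, had 40 counts in Nrf2-EGFP and 11 in wt, 3.29-fold higher (1.66 to 7.11). It passed the filter only through Nrf2-EGFP. Gdf15 had 27 counts in ARPC4 ko, 6 in Nrf2-EGFP and 31 in wt, 5.71-fold lower (2.35 to 16.7) in Nrf2-EGFP than in wt. Gdf15 passed the filter only through ARPC4 ko and wt. The median log2 ratio of this list was 0.19 in ARPC4 ko and -0.20 in Nrf2-EGFP, beside -0.01 and 0.00 over all genes. Of all genes 4.7% were called higher and 2.06% lower in ARPC4 ko, and 3.57% and 2.05% in Nrf2-EGFP. Among 6 measured secreted antagonists of 17 listed, Fstl1 was the call in both comparisons, with 55 counts in ARPC4 ko, 26 in Nrf2-EGFP and 2 in wt. Fstl1 passed the filter only through the modified libraries. Its ratios were 25.4 (6.72 to 215) in ARPC4 ko and 11.8 (2.95 to 102) in Nrf2-EGFP, and the list's medians were 0.48 and 0.41.

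Of the other receptors 1 was called against wt, and none of the SMAD genes or their regulators. Acvrl1, a receptor of type I known mainly from endothelium, was the call among 11 measured receptors and co-receptors in both comparisons. It had 42 counts in ARPC4 ko, 41 in Nrf2-EGFP and 8 in wt, and passed the filter only through the modified libraries. Its ratios were 4.86 (2.25 to 12.0) in ARPC4 ko and 4.64 (2.15 to 11.5) in Nrf2-EGFP. The medians of that list were 0.16 in ARPC4 ko and 0.15 in Nrf2-EGFP. None of 6 measured SMAD genes and none of 16 measured SMAD regulators was called in either comparison with wt. Over all genes 6.76% were called in ARPC4 ko over wt and 5.61% in Nrf2-EGFP over wt. A count of 0 or 1 call in lists this short lies near that share. The medians of the SMAD genes and of their regulators were 0.25 and 0.05 in ARPC4 ko and 0.10 and 0.17 in Nrf2-EGFP.

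Genes known to respond to TGF-beta in epithelial cells were in part called in both modified libraries, where 4.7% (ARPC4 ko) and 3.57% (Nrf2-EGFP) of all genes were called higher and 2.06% and 2.05% lower. Of 24 measured members of 27 listed, 4 were higher and 1 lower in ARPC4 ko (median 0.39), and 8 were higher and 1 lower in Nrf2-EGFP (median 0.55), a difference in number that was not tested. In ARPC4 ko the largest were Angptl4, a regulator of lipoprotein lipase, at 3.16-fold (2.44 to 4.13), Ankrd1 at 3.11-fold (1.91 to 5.26) and Hmga2 at 2.80-fold (2.63 to 2.99). Ankrd1 had 74 counts in ARPC4 ko and 22 in wt, or 3.04 and 0.98 CPM, and did not pass the filter through wt. In Nrf2-EGFP the largest were Ccn2, a matricellular growth factor, at 3.97-fold (3.58 to 4.41), Hmga2 at 3.42-fold (3.21 to 3.64) and Timp1, a metalloproteinase inhibitor, at 3.27-fold (2.94 to 3.66). Acta2, smooth muscle actin, was the lower one in both, with 41 counts in ARPC4 ko, 34 in Nrf2-EGFP and 114 in wt. Not all members share the direction. Tgfbi, named for its induction by TGF-beta and chosen after its values were seen, had ratios of 0.67 (0.61 to 0.73) in ARPC4 ko and 0.62 (0.57 to 0.68) in Nrf2-EGFP.

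**Figure D5:**
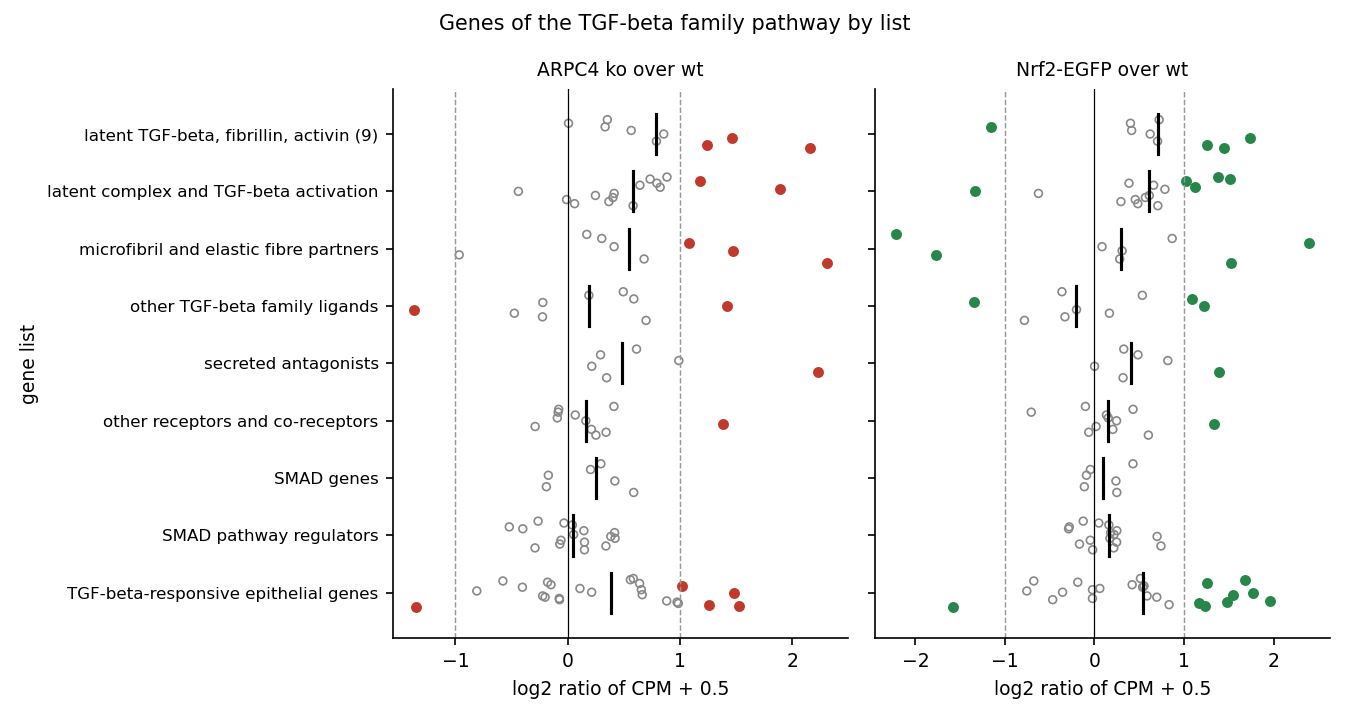
Log2 ratio of CPM + 0.5 for each measured gene of the described set (top row) and of 8 further pathway lists, in ARPC4 ko over wt (left) and Nrf2-EGFP over wt (right). Filled points are called genes, open points are not called, black ticks are list medians and dashed lines mark a ratio of 2-fold; medians of the SMAD lists lie between 0.05 and 0.25.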

How the data were processed

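TRIzol RNA was made into TruSeq stranded mRNA libraries and read as 65 bp single ends, per the labels' protocols. The tools were TopHat2 2.1.0, Bowtie 1.1 and HTSeq on mm10, per the submitters' processing notes, with no settings stated. The authors deposited unnormalised read counts for each gene in a table for each library. Non-gene totals, 8.22% (ARPC4 ko), 8.48% (Nrf2-EGFP) and 9.08% (wt) of all entries, were left out.

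Symbols, coordinates and exon lengths came from GENCODE M21 (40254 of 41214 identifiers had a symbol) and promoters from RefSeq. Libraries were scaled with TMM in edgeR 4.0.16 under R 4.3.3. The filter, pseudocount and 2-fold rule are given with the results. Intervals of ratios are Clopper-Pearson, conditional on the summed counts, also for gene pairs inside a library, of which 7 were computed. Those of the change of a pair's ratio between libraries are exact conditional odds ratio intervals (SciPy 1.17.1). Where a count was 0 in a called gene, the ratio is given as 0 with its exact interval. The steps were tested on simulated data. Coding length is the longest annotated coding sequence. The members, the 8 pathway lists, the 5 marker lists and the motifs were chosen with earlier results of these data known. Genes named from a list are up to 4 called members with the largest log2 ratio in size against wt, beside all members and their nearest patterns, and others are marked. Some results are not reported here. Alternatives were another scaling (total counts, DESeq2 1.42.0 size factors), filter, pseudocount, fold and gene length.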

Additional observations from a re-analysis of the deposited data

How the results depend on the processing

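Fbn1, Ltbp1 and Fst were called in both comparisons with wt under every alternative run. No sign of a called gene turned, and DESeq2 size factors left all 27 log2 ratios within their counting intervals. A pseudocount of 2 CPM moved 3 of them out and scaling by total counts 11, with 1 change of sign, that of the uncalled Fst ratio between ARPC4 ko and Nrf2-EGFP. Scaling by total counts moved the median of all genes to 0.09 in ARPC4 ko over wt (-0.01 with TMM) and to 0.11 in ARPC4 ko over Nrf2-EGFP (-0.02). It moved the median of the 9 genes to 0.89 and 0.21 in these comparisons, from 0.79 and 0.09. Without the filter, which adds Tgfb2, the median in ARPC4 ko over wt was 0.68. With a 1.5-fold rule 5 members were called in ARPC4 ko over wt, 7 in Nrf2-EGFP over wt and 2 in ARPC4 ko over Nrf2-EGFP, and 2025, 1700 and 1095 of all genes. A filter of 10 CPM left 374, 334 and 114 calls over all genes, against 802, 666 and 353, and a pseudocount of 2 CPM left 454, 362 and 147. Under either of these, 0 members were called between ARPC4 ko and Nrf2-EGFP, since Tgfb3 was removed or shrunk. No paired analysis was possible because each group has 1 library, and no replicate could be left out. Depth limits Tgfb2 and Tgfb3, with 44 counts or fewer.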

Other observations

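Some pathway genes below the filter of 1 CPM still differed in counts between the libraries, and these were chosen after their values were seen. Itgb3, a partner of the TGF-beta-releasing integrin Itgav, had 9 counts in ARPC4 ko, 10 in Nrf2-EGFP and 0 in wt. Mmp9, a gelatinase, had 8, 12 and 1 counts in the same libraries. Zeb1, a transcription factor of epithelial-mesenchymal transition, had 16, 4 and 3 counts, and the inhibitory SMAD gene Smad6 had 11, 5 and 2. Grem1, an antagonist of bone morphogenetic proteins, had 9, 0 and 1 counts. None reached 1 CPM in any library, so they were left out of the comparisons and no fold is given.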
